A study of Mus musculus with 2 samples.

Results

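The genes described are 10 that make leukotrienes and prostanoids, Alox5, Alox5ap, Lta4h, Ltc4s and Alox15 on the lipoxygenase side and Ptgs1, Ptgs2, Ptges, Ptgis and Hpgds on the cyclooxygenase side. They were taken by symbol, and all 10 were among the 27998 genes of the files. Their transcripts were counted in single cells of whole lung from 2 male C57Bl/6J mice aged 3 months, 1 labelled control and 1 labelled fibrosis, on day 14 after 100 µg of particles had been placed in the trachea. Titanium dioxide and crocidolite asbestos, a fibre that scars the lung, both stand in the protocol of either mouse, and the labels tie neither particle to a mouse, which leaves control and fibrosis as the names of the groups. No genetic modification is named, and the mice share strain, sex, age, dose and day. Each group is 1 library from 1 mouse, so no difference below has a replicate check, no test between the groups is possible, and every 95% interval covers counting error only.

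Both mediator families start from arachidonic acid that phospholipases release from membranes. The lipoxygenase encoded by Alox5, helped by its activating protein Alox5ap, makes leukotriene A4, from which the hydrolase Lta4h makes leukotriene B4, which draws neutrophils, and the synthase Ltc4s makes leukotriene C4, which contracts airway muscle. The cyclooxygenases Ptgs1 and Ptgs2 make prostaglandin H2, from which Ptges makes prostaglandin E2, Ptgis makes prostacyclin and Hpgds makes prostaglandin D2.

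After filtering, the control library held 7510 cells with a median of 3668 unique molecular identifiers (UMIs) and the fibrosis library 6559 cells with a median of 4224. The libraries shared 89 cell barcodes. Each cell was placed in a class, called "-like" because names were rebuilt from transcripts, by the marker genes detected in it, none of which is a member, and 676 control and 834 fibrosis cells joined no class. The 16 classes with at least 30 cells in each library were compared. Alveolar macrophage-like cells carried a median of 12 and 11 of their 15 markers in the control and fibrosis libraries, and AT2-like cells (the surfactant-making alveolar epithelium) 12 of 12 in both. Other classes carried fewer. The median was 6 of 10 in both libraries for type 2 dendritic-like and nonclassical monocyte-like cells, and 6 and 5 of 11 for T cell-like cells. Classical monocyte-like cells numbered 1651 and 441, neutrophil-like cells 668 and 90, AT2-like cells 996 and 1708, and alveolar macrophage-like cells 666 and 946. The members gave 31816 UMIs in control and 20477 in fibrosis. Levels are given as CPM, the UMIs of a gene scaled to a common UMI total per class, and differences are log2 ratios of fibrosis over control. B cell-like cells serve as a measure of what free RNA can give, although B cells can transcribe some of these genes. Their median depth was 1844 and 2567 UMIs, against 4858 and 5170.5 in alveolar macrophage-like and 5630.5 and 5475 in AT2-like cells. The part of depth in comparisons with B cell-like cells was not tested.

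**Figure D1:**
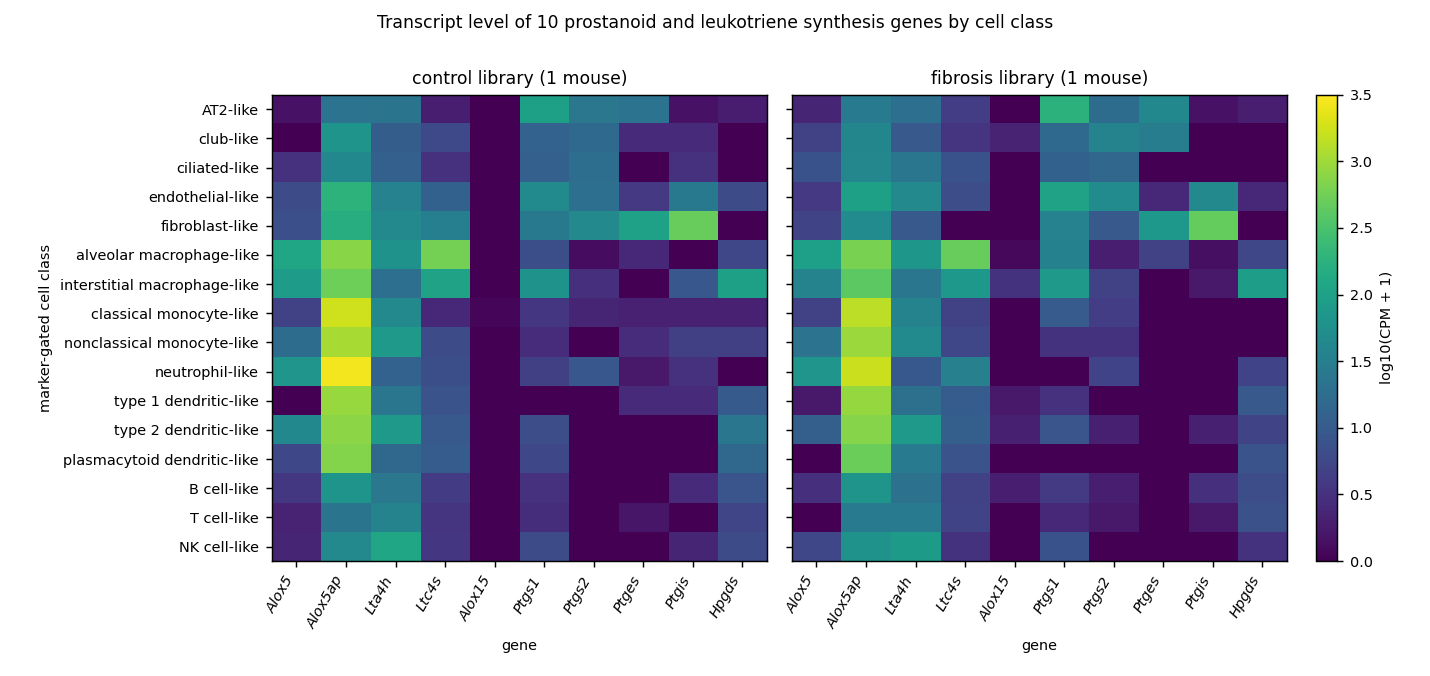
Level of each gene, as log10(CPM + 1) on the colour scale, in the 16 compared classes (rows) of the control and the fibrosis library. Ltc4s was brightest in the alveolar macrophage-like row, Hpgds in the interstitial macrophage-like row, Ptgis in the fibroblast-like row and Alox5ap over all myeloid rows.

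The genes divided the lung between them. Of each gene's UMIs, alveolar macrophage-like cells held 91.4% (control) and 86.6% (fibrosis) for Ltc4s and 60.2% and 72.3% for Alox5. AT2-like cells held 69.4% and 74.4% for Ptgs1, and 73.1% and 77.0% for Ptges. Mesothelial-like and fibroblast-like cells together held most Ptgis, and interstitial macrophage-like cells were the class with the most Hpgds, 33.3% and 48.4%. Lta4h had no such class.

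**Figure D2:**
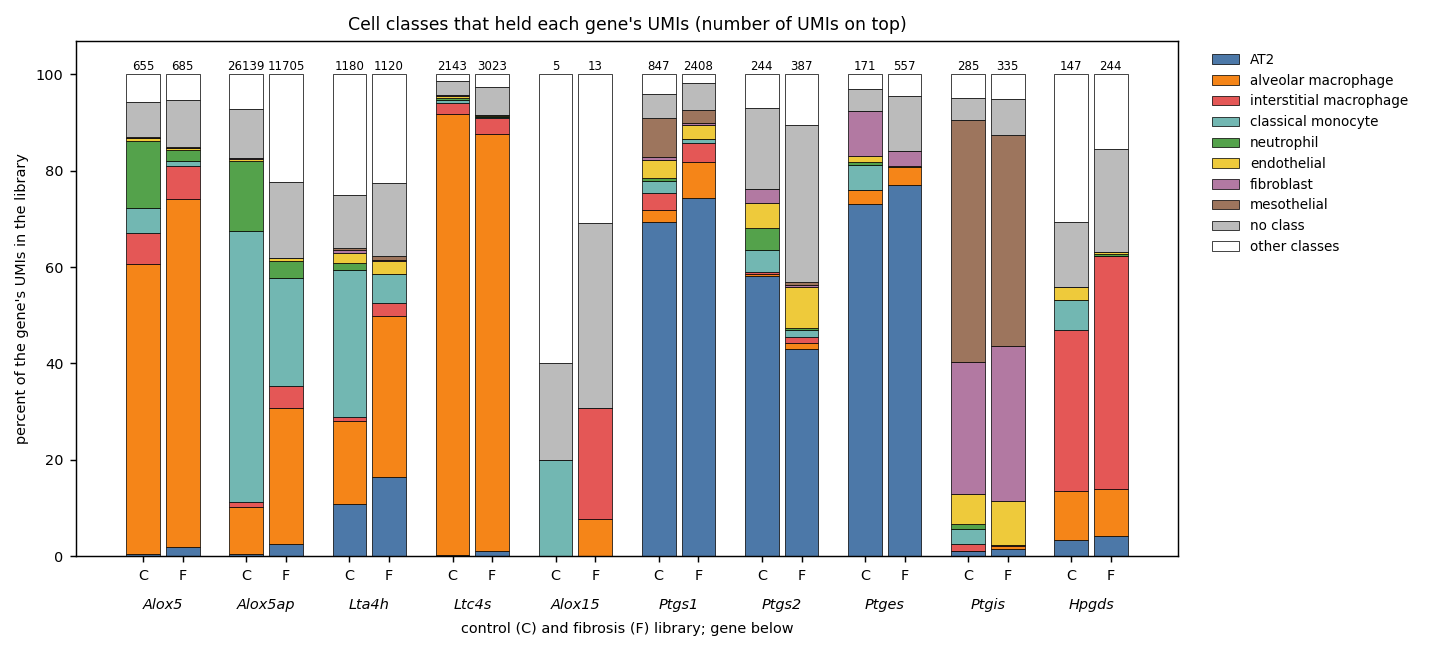
Percent of each gene's UMIs that each cell class held in the control (C) and fibrosis (F) library, with the number of UMIs above each bar. The share of Alox5ap held by classical monocyte-like cells was 56.2% for control and 22.4% for fibrosis, while the main class of Ltc4s, Ptgs1 and Ptges was the same in both.

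Between the libraries, 12 of the 52 pairs of a member and a class with at least 20 UMIs lay past 2-fold (23.1%), 9 higher and 3 lower in fibrosis, against 7.87% of all pairs of a gene and a class. The other 108 of the 160 pairs had too few UMIs, so these counts speak for the more abundant pairs only. With at least 50 UMIs, 4 of 36 member pairs (11.1%) lay past 2-fold, against 4.05% of all pairs, so most of the 12 pairs rest on fewer than 50 UMIs. The 9 higher pairs were Ptgs1 in alveolar macrophage-like, classical monocyte-like and endothelial-like cells, Ptgs2 in club-like and endothelial-like cells, Ptges in AT2-like, club-like and alveolar macrophage-like cells, and Ltc4s in AT2-like cells. The 3 lower pairs were Alox5 in interstitial macrophage-like and type 2 dendritic-like cells and Alox5ap in fibroblast-like cells. Of the 9 higher pairs 8 were of Ptgs1, Ptgs2 or Ptges, and all 3 lower pairs were of Alox5 or its activating protein. The genes differed in how many classes had enough UMIs, so these counts do not compare the 2 sides. Less the median ratio of the gene in the other classes, Ptges in AT2-like (-0.29) and Ptgs1 in endothelial-like cells (-0.12) changed sign. Ptges in alveolar macrophage-like (0.29), Ptgs1 in classical monocyte-like (0.80) and Ptgs2 in club-like cells (0.81) fell under 2-fold. The other called pairs stayed past it.

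**Figure D3:**
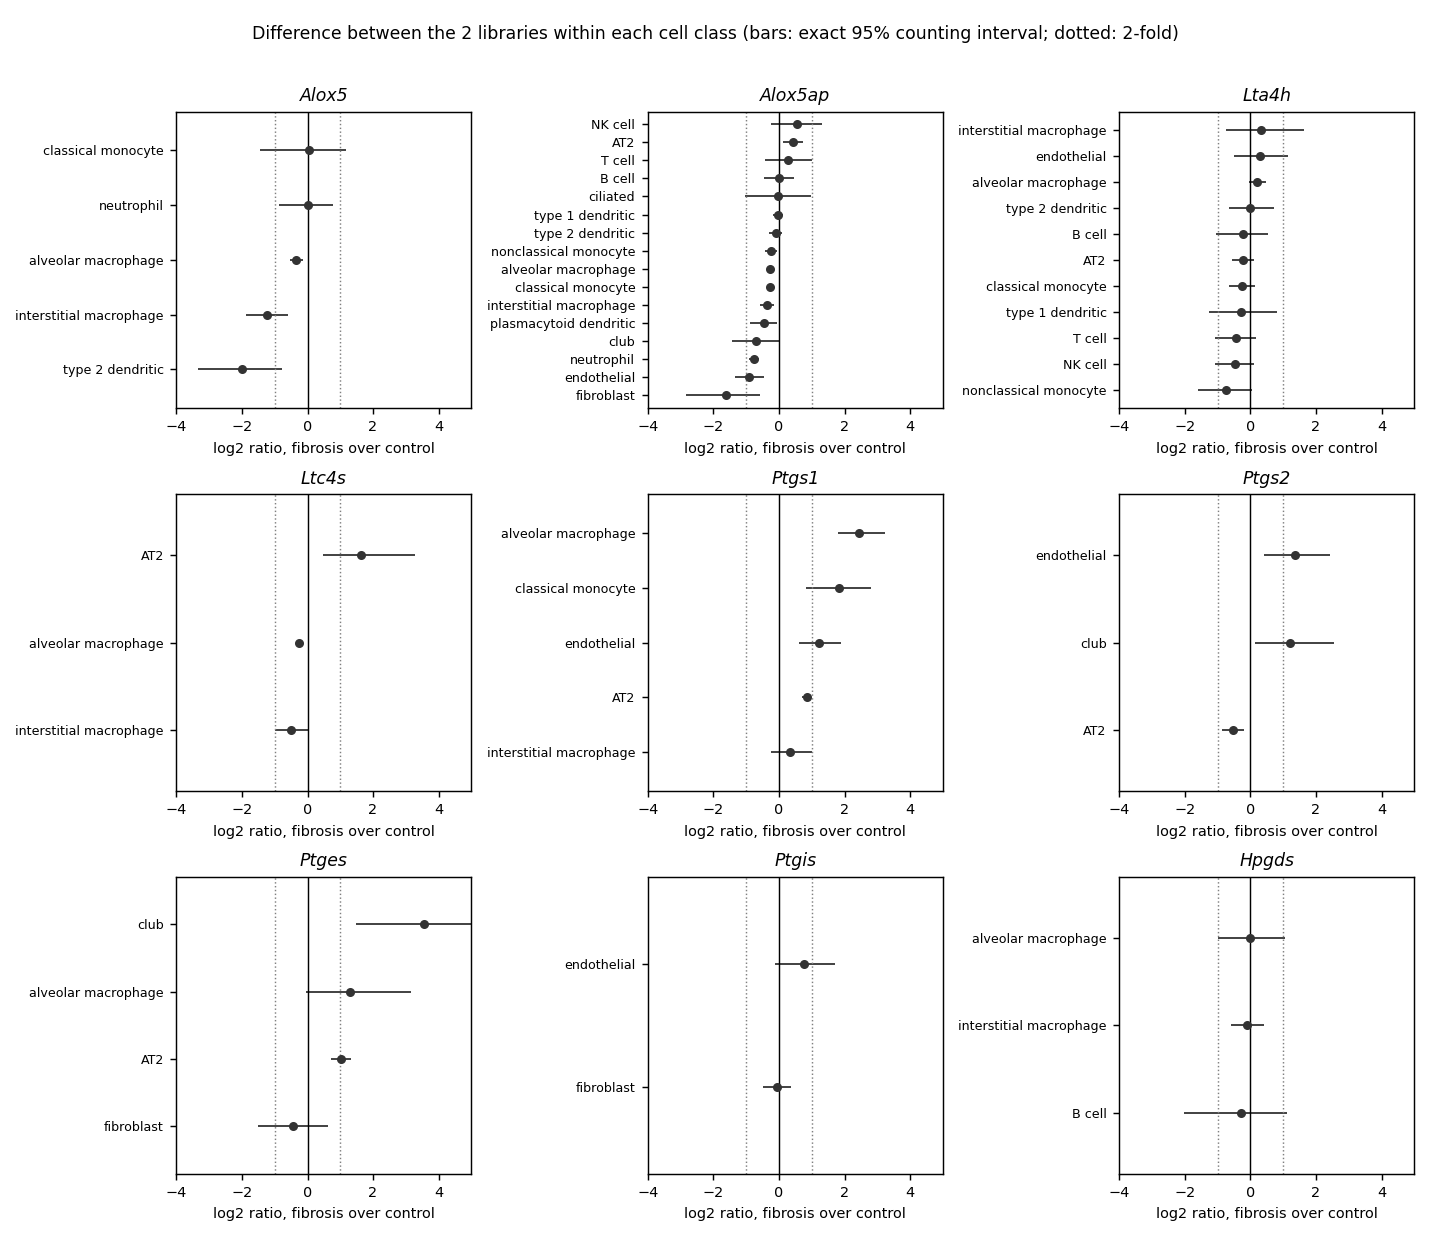
Log2 ratio of fibrosis over control (x axis) for each gene in every compared class with at least 20 UMIs, with exact 95% counting intervals, dotted lines at 2-fold and a solid line at no difference. The upper bound of Ptges in club-like cells, 9.47, runs off the axis at 5, and Alox15 is left out for want of UMIs.

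Alox5, which starts leukotriene synthesis, was highest in alveolar macrophage-like cells at 118 CPM (95% interval 106 to 130, 394 UMIs) in control and 92.9 CPM (84.9 to 101, 495 UMIs) in fibrosis, a log2 ratio of -0.34 (-0.54 to -0.15). Less the median ratio of Alox5 in the 4 other classes with enough UMIs, -0.61, this was 0.27. Neutrophil-like cells gave 66.3 and 65.7 CPM, without a difference beyond counting error. In interstitial macrophage-like cells, the C1q-rich macrophages outside the airspace, Alox5 was 84.5 CPM (61.2 to 114, 43 UMIs) in control and 35.8 CPM (26.3 to 47.6, 47 UMIs) in fibrosis, a log2 ratio of -1.24 (-1.87 to -0.61). Type 2 dendritic-like cells went the same way, from 42.6 to 10.5 CPM, but on 15 and 10 UMIs only. In control the 4 classes formed a series in which each level overlapped the next within its interval. In fibrosis the interstitial macrophage-like level lay below that of alveolar macrophage-like cells with intervals that did not overlap. The lower level of interstitial macrophage-like cells was also seen within the cluster led by C1qa and C1qc, at 93.1 and 41.2 CPM. There the macrophage elastase gene Mmp12 was at 95.3 and 335 CPM, and its part in the result was not tested. After each cell had been thinned to 1000 UMIs, 12.5% of control and 10.4% of fibrosis alveolar macrophage-like cells held an Alox5 UMI, against 0.229% of control B cell-like cells. Unthinned, at median depths of 4858 and 5170.5 UMIs, the alveolar macrophage-like shares were 42.5% and 37.5%.

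Alox5ap, which presents arachidonic acid to the Alox5 enzyme, was found across the myeloid cells. In control its level was 2774 CPM in neutrophil-like, 1744 CPM in classical monocyte-like and 1106 CPM in nonclassical monocyte-like cells. It was 907 CPM in type 1 dendritic-like, 773 CPM in type 2 dendritic-like, 753 CPM in alveolar macrophage-like, 708 CPM in plasmacytoid dendritic-like and 535 CPM in interstitial macrophage-like cells. The first 3 were apart in their intervals, whereas type 1, type 2, alveolar macrophage-like and plasmacytoid neighbours overlapped. The 8 non-myeloid classes lay between 20.5 and 182 CPM, and B cell-like cells at 64.3 CPM. In fibrosis the order of these 8 myeloid classes was the same.

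All 8 myeloid levels of Alox5ap were lower in fibrosis, none past 2-fold. The smallest difference was in type 1 dendritic-like cells, 907 and 881 CPM, with a log2 ratio of -0.04 (-0.19 to 0.11). Classical monocyte-like cells had 1744 and 1427 CPM (-0.29, -0.35 to -0.23). Unthinned, at median depths of 5045 and 3983 UMIs, 99.6% and 97.7% of them held an Alox5ap UMI. Nonclassical monocyte-like cells had 1106 and 929 CPM (-0.25, -0.44 to -0.07), which became 0.03 less the median of the 15 other classes, -0.28. Neutrophil-like cells had 2774 and 1642 CPM (-0.75, -0.91 to -0.61). Of the 90 neutrophil-like cells of the fibrosis library 48 fell in the main neutrophil cluster, against 622 of 668 in control, and within that cluster the levels were 2885 and 2259 CPM (-0.35, -0.54 to -0.17). Over the whole library Alox5ap was 808 CPM in control and 342 CPM in fibrosis. With control levels of each class combined in the proportions of the fibrosis library, it would have been 459 CPM, which lies nearer to the fibrosis than to the control value.

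In some non-myeloid classes Alox5ap also differed between the libraries, at control levels from below to well above that of B cell-like cells. Fibroblast-like cells gave 148.5 and 47.1 CPM on 24 and 11 UMIs (log2 ratio -1.62, -2.83 to -0.57), and endothelial-like cells 182 and 97.4 CPM (-0.90, -1.35 to -0.47). In the endothelial-like cells of a cluster led by Vwf, 121 in control and 123 in fibrosis, the levels were 276 and 74.7 CPM (-1.87, -2.46 to -1.34), and in the other main cluster, of 152 and 55 cells, 68.1 and 68.2 CPM (0.04, -1.23 to 1.13). Of the 68 fibrosis UMIs of the class, 20 came from the 3 cells outside both clusters. Over both libraries together, the markers next most raised in the Vwf-led cluster were those of neutrophils, with a mean log2 excess of 1.69 over the median cluster. The part of neutrophil transcripts in its Alox5ap levels was not tested. Clusters in place of gated classes gave -1.68 for endothelial-like cells as a whole. The Alox5ap level of the whole library was lower in fibrosis too, and the part of free RNA in these differences was not tested. In AT2-like cells Alox5ap was 20.5 and 27.6 CPM, a log2 ratio of 0.42 that was -0.55 when doublets were kept. Of the 283 UMIs in fibrosis, 104 came from 46 cells of a cluster that also carried neutrophil markers, and in the largest AT2 cluster the levels were 16.7 CPM in control and 12.3 CPM in fibrosis.

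Lta4h, which turns leukotriene A4 into leukotriene B4, was spread over the lung. Its highest levels were in NK cell-like cells, 112 CPM (89.9 to 139) in control and 80.6 CPM (56.5 to 112) in fibrosis. Type 2 dendritic-like cells gave 73.9 and 73.8 CPM, and alveolar macrophage-like cells 60.9 and 70.5 CPM. The monocyte-like classes gave 77.7 and 46.1 CPM (nonclassical) or 42.8 and 35.8 CPM (classical). All 16 classes held Lta4h, down to 9.84 CPM in control and 8.21 CPM in fibrosis, and every class overlapped the next in the order within counting error. None of its 11 ratios with enough UMIs lay past 2-fold, and the interval of each spanned 0.

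Ltc4s, the synthase of the cysteinyl leukotrienes, was the most narrowly held of the lipoxygenase genes with enough UMIs. Alveolar macrophage-like cells gave 585 CPM (559 to 611, 1959 UMIs) in control and 491 CPM (473 to 510, 2618 UMIs) in fibrosis, a log2 ratio of -0.25 (-0.34 to -0.17). Interstitial macrophage-like cells followed with 102 and 72.4 CPM, a ratio whose interval reached just above 0. The other 14 classes stood at 0.99 to 30.9 CPM in control and 0 to 32.8 CPM in fibrosis, with medians of 5.17 and 4.46 CPM. B cell-like cells were at 3.16 and 3.85 CPM. AT2-like cells gave 0.99 and 3.32 CPM on 6 and 34 UMIs, past 2-fold. In CPM this was no higher than the B cell-like level in either library, although these classes differed in depth. Among smaller classes, the 72 migratory dendritic-like cells of the fibrosis library gave 82.3 CPM (32 UMIs), and the 10 of the control library 1 UMI.

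Within alveolar macrophage-like cells the lower fibrosis level of Ltc4s belonged to part of the cells. Clusters of cells, made without the members and looked at in this way after the data had been seen, divided the class mainly into one of 598 control and 568 fibrosis cells led by Chil3, Ear1 and Ear2, and one of 22 and 304 cells led by Chil3, Spp1 and Mmp12. In the first, Ltc4s was 613 and 606 CPM, with a log2 ratio of -0.02 (-0.11 to 0.08). Alox5 there was 124 and 118 CPM, and Alox5ap 789 and 756 CPM. In the second, the fibrosis library gave 360 CPM of Ltc4s, 62.4 CPM of Alox5 and 471 CPM of Alox5ap, and the few control cells 618, 39.6 and 570 CPM. A smaller cluster with the cell cycle gene Top2a among its leading genes, of 45 and 74 cells, gave 337 and 382 CPM of Ltc4s. A split of fibrosis cells by whether Mmp12 made up at least 0.1% of their UMIs went the same way. Mmp12 was a leading gene of the second cluster, so the 2 splits share cells and are not independent. The 159 cells above that line gave 261 CPM of Ltc4s and the 787 below it 544 CPM, a log2 ratio of -1.06 (-1.25 to -0.87). Alox5 was 59.5 against 100.5 CPM (-0.75) and Alox5ap 399 against 673 CPM (-0.75), while Lta4h, 84.7 against 67.3 CPM, had an interval that spanned 0 (-0.04 to 0.69). In control only 2 of 666 cells passed the Mmp12 line, and in fibrosis 50 cells above it and 46 below lay between 0.05% and 0.2%. Alox5ap and Ltc4s UMIs met in the same thinned cell in 23.9% of control and 17.2% of fibrosis alveolar macrophage-like cells, where independence within the class would give 22.4% and 15.5%.

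Alox15, a lipoxygenase of eosinophils and resident peritoneal macrophages, gave 5 UMIs in the whole control library and 13 in the fibrosis library. Of the 5, 3 lay in the 12 cells gated as mast cells and basophils, and 3 of the 13 in interstitial macrophage-like cells. No cells of the fibrosis library were gated as mast cells or basophils. Of the 16 compared classes 15 held no Alox15 UMI in control and 10 held none in fibrosis. Alveolar macrophage-like cells of the control library had none, which allows a level of up to 0.896 CPM.

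Ptgs1, the cyclooxygenase that most tissues express without a stimulus, was highest among the compared classes in AT2-like cells in both libraries. It was 97.4 CPM (89.7 to 106, 588 UMIs) in control and 175 CPM (167 to 183, 1791 UMIs) in fibrosis, a log2 ratio of 0.84 (0.71 to 0.98). This lay below the median ratio of Ptgs1 in the 4 other classes with enough UMIs, 1.52, and less that median it was -0.68. Interstitial macrophage-like cells gave 59.0 and 75.4 CPM, with an interval of the ratio that spanned 0. Endothelial-like cells gave 44.6 and 104.5 CPM (1.22, 0.61 to 1.88), which became -0.12 less the median of the other classes, 1.34, and 0.88 with each cell weighted alike. The order of these classes in fibrosis put AT2-like cells apart from the rest, with endothelial-like and interstitial macrophage-like cells overlapping each other. Outside the rule of 30 cells, the 30 control and 29 fibrosis mesothelial-like cells gave more than any compared class, 309 and 267 CPM.

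The largest Ptgs1 ratio lay in alveolar macrophage-like cells. They gave 5.97 CPM (3.65 to 9.22, 20 UMIs) in control and 33.2 CPM (28.5 to 38.5, 177 UMIs) in fibrosis, a log2 ratio of 2.44 (1.80 to 3.22). Of the 7 members with enough UMIs in these cells, Ptgs1 and Ptges lay past 2-fold, against 5.0% of all genes there. The first main cluster gave 4.51 and 21.8 CPM (2.23, 1.40 to 3.26). The second gave 23.8 and 50.8 CPM, with 3 control UMIs and an interval of the ratio that spanned 0 (-0.49 to 3.40). In fibrosis the cells above the Mmp12 line gave 52.4 CPM and those below it 28.8 CPM. Classical monocyte-like cells gave 2.61 and 9.23 CPM on 22 and 17 UMIs (1.83, 0.82 to 2.80). Less the median ratio of the other classes, the alveolar macrophage-like ratio was 1.41 and the classical monocyte-like ratio 0.80, under 2-fold. B cell-like cells gave 2.11 and 2.88 CPM on 4 and 3 UMIs. Over the whole library Ptgs1 was 26.2 and 70.4 CPM, and control class levels in the fibrosis proportions would have given 38.5 CPM.

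Ptges, the inducible synthase of prostaglandin E2, was shared between AT2-like and fibroblast-like cells. Fibroblast-like cells gave 99.0 and 72.8 CPM on 16 and 17 UMIs, with overlapping intervals. AT2-like cells gave 20.7 CPM (17.2 to 24.7, 125 UMIs) in control and 41.9 CPM (38.0 to 46.0, 429 UMIs) in fibrosis, a log2 ratio of 1.01 (0.72 to 1.31). Less the median ratio of Ptges in the 3 other classes with enough UMIs, it was -0.29. It was 0.95 without the mitochondrial and gene filters (doublets still left out) and 1.07 without doublet removal. Ptges and Ltc4s were the 2 of 6 members past 2-fold in AT2-like cells, against 5.29% of all genes there. Club-like cells, the secretory cells of the airway, gave 1 UMI in control and 23 in fibrosis, or 1.64 and 28.2 CPM. The interval of that ratio was wide, 1.48 to 9.47 around 3.55, and weighting each cell alike gave 1.51. The median depth of club-like cells was 4238 UMIs in control and 8329 in fibrosis, and its part in the result was not tested. Alveolar macrophage-like cells gave 1.49 and 3.94 CPM on 5 and 21 UMIs, a ratio whose interval spanned 0 (-0.05 to 3.16) and which was 0.29 less the median of the other classes. B cell-like cells held no Ptges UMI in either library.

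Ptgs2, the inducible cyclooxygenase, did not follow Ptgs1 in AT2-like cells. It was 23.5 CPM (19.8 to 27.7, 142 UMIs) in control and 16.2 CPM (13.8 to 18.9, 166 UMIs) in fibrosis, a log2 ratio of -0.54 (-0.87 to -0.21), while Ptgs1 and Ptges were higher in fibrosis in the same cells. The opposite directions were seen within both main AT2 clusters. In the cluster of 813 control and 811 fibrosis cells, Ptgs2 was 22.1 and 13.4 CPM, Ptgs1 82.3 and 120 CPM, and Ptges 15.8 and 24.4 CPM. In the cluster of 168 and 772 cells, which had more of the lipocalin gene Lcn2 (1086 and 2508 CPM, against 699 and 1608 CPM), Ptgs2 was 30.4 and 20.5 CPM, Ptgs1 166 and 228 CPM, and Ptges 40.9 and 61.6 CPM. Although its Ptgs2 intervals overlapped those of the first in each library, the second cluster was the higher in all 3 genes. Its share of AT2-like cells was larger in fibrosis, so the ratio of Ptgs1 within a cluster, 0.54 (0.35 to 0.73) or 0.46 (0.24 to 0.69), was smaller than over the class. The ratio of Ptges was 0.62 (0.19 to 1.06) or 0.58 (0.15 to 1.07), and that of Ptgs2 -0.72 (-1.20 to -0.25) or -0.58 (-1.14 to 0.03). After thinning, 9.54% of control and 15.1% of fibrosis AT2-like cells held a Ptgs1 UMI, 1.51% and 3.75% a Ptges UMI, and 37.3% and 55.2% held a Ptgs1 UMI before it.

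**Figure D4:**
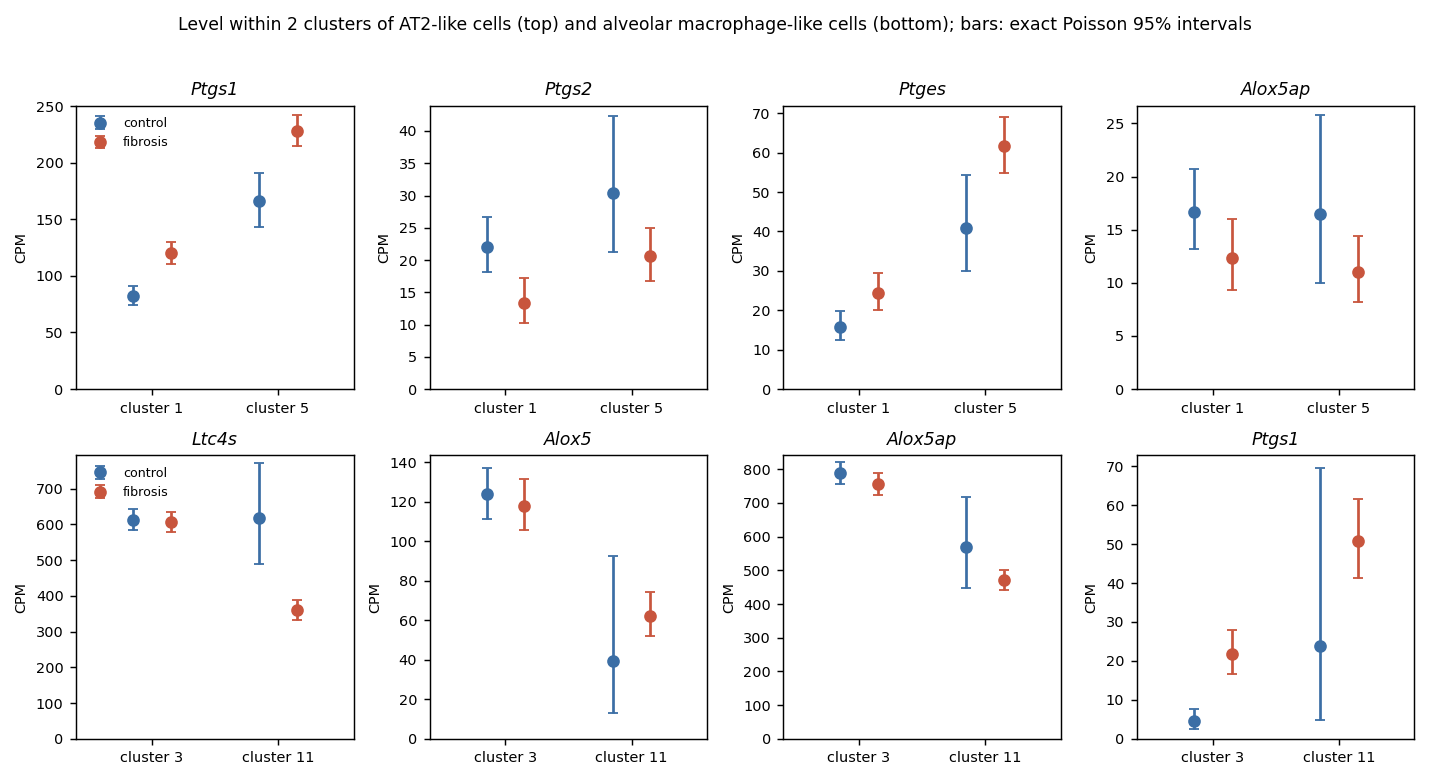
Level (CPM, y axis) with exact Poisson 95% intervals in the control (blue) and fibrosis (red) library, for 4 genes within the 2 main clusters of AT2-like cells (top row) and of alveolar macrophage-like cells (bottom row). Ptgs1 and Ptges were higher and Ptgs2 lower in fibrosis in both AT2 clusters, although the Ptgs2 intervals overlapped in cluster 5. Ltc4s, Alox5 and Alox5ap overlapped between the libraries in alveolar macrophage cluster 3.

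In the 2 other classes with at least 20 UMIs, Ptgs2 was higher in fibrosis. Endothelial-like cells gave 18.1 and 47.2 CPM on 13 and 33 UMIs (1.35, 0.42 to 2.43), and a ratio of 0.93 when one minimum of UMIs per cell was used for both libraries. Club-like cells gave 14.8 and 35.5 CPM on 9 and 29 UMIs (1.22, 0.15 to 2.53), and 0.81 less the median of the other classes. The highest control level was that of fibroblast-like cells, 43.3 CPM on 7 UMIs, and their fibrosis level was 8.57 CPM on 2 UMIs. Ciliated-like cells gave 17.4 and 13.4 CPM on 8 and 6 UMIs and neutrophil-like cells 8.01 and 4.10 CPM on 11 and 1, too few to read a ratio in any of these 3 classes. All endothelial-like Ptgs2 UMIs came from a cluster led by Vwf, the von Willebrand factor gene of larger vessels, where 121 control and 123 fibrosis cells gave 34.5 and 64.9 CPM. Ptgs1 there was 76.9 and 139.5 CPM (0.84, 0.22 to 1.54). The Vwf-led cluster was 121 of 274 endothelial-like cells in control and 123 of 181 in fibrosis, and within it neither Ptgs1 nor Ptgs2 lay past 2-fold. The interval of Ptgs2 there spanned 0 (-0.05 to 1.96).

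Ptgis, which makes prostacyclin, marked the stroma and the lung surface. Fibroblast-like cells gave 483 CPM (382 to 602, 78 UMIs) in control and 463 CPM (380 to 559, 108 UMIs) in fibrosis, a log2 ratio of -0.06 (-0.49 to 0.38). The mesothelial-like cells gave 632 and 596 CPM and held 50.2% and 43.9% of all Ptgis UMIs, although they were 30 and 29 cells. Unthinned, a Ptgis UMI was found in 93.3% and 93.1% of them, and in 65.9% and 75.5% of fibroblast-like cells. The median depth of fibroblast-like cells was 3328 UMIs in control and 4242 in fibrosis, and its part in their shares was not tested. Endothelial-like cells gave 25.1 and 43.0 CPM (0.76, -0.11 to 1.71), and no other compared class exceeded 7.86 CPM. The smooth muscle and pericyte-like cells, 9 and 10 in number, gave 5 and 12 UMIs.

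Hpgds, the haematopoietic synthase of prostaglandin D2, separated the macrophage classes. Interstitial macrophage-like cells gave 96.3 CPM (71.3 to 127, 49 UMIs) in control and 89.9 CPM (74.4 to 108, 118 UMIs) in fibrosis, a log2 ratio of -0.11 (-0.59 to 0.41). Alveolar macrophage-like cells gave 4.48 and 4.50 CPM, no more in CPM than the 7.38 and 5.77 of B cell-like cells, although these classes differed in depth. The next of the compared classes was type 2 dendritic-like cells at 22.7 CPM in control and type 1 dendritic-like cells at 8.65 CPM in fibrosis. Outside the compared classes, the 50 fibrosis cells gated as type 2 innate lymphoid held 4 Hpgds UMIs, all in 28 cells with a Cd3 transcript. In interstitial macrophage-like cells 1 of 6 members with enough UMIs, Alox5, lay past 2-fold, against 10.1% of all genes there.

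The genes with the most similar profiles over the 16 classes in both libraries (Pearson correlation of log2(CPM + 10) over 32 values, whose points share libraries and the free RNA in them) were as follows. For Ltc4s they were Slc9a4 (0.91) and Trim29 (0.90), and for Alox5 Tlr2 (0.87) and Slc15a3 (0.87). Alox5ap went with Spi1 (0.95), the myeloid transcription factor, and Pirb (0.95). Lta4h had no close partner, the nearest being Hccs (0.76) and Nxt1 (0.74). For Ptgs1 they were Itga9 (0.89) and Anxa3 (0.87), for Ptgs2 Arhgef5 (0.89) and Lurap1l (0.88), and for Ptges Snhg18 (0.95) and Echdc2 (0.94). Ptgis went with Pcolce2 (0.98) and Sparcl1 (0.98), and Hpgds with Pf4 (0.88) and C1qa (0.87), both of which were used to gate interstitial macrophage-like cells. Among the members themselves, Ltc4s and Alox5 correlated at 0.78, and Ptges and Ptgis at 0.72.

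Of 55 other genes of these pathways listed by role, 54 were in the files. In alveolar macrophage-like cells 3 of 29 with enough UMIs lay past 2-fold higher and none lower, against 5.0% of all genes there in either direction. They were the phospholipase gene Pla2g7 (4.78 and 19.7 CPM, log2 ratio 2.01), the prostacyclin receptor gene Ptgir (8.66 and 33.4 CPM, 1.93) and the cysteinyl leukotriene receptor gene Cysltr1 (2.09 and 6.19 CPM, 1.49). Within the first main cluster Ptgir was 4.51 and 9.30 CPM, a ratio just past 2-fold (interval 0.03 to 2.13), and it did not lie higher in fibrosis within the second (-0.45, -1.24 to 0.59). There 12 UMIs came from 22 control cells and 144 UMIs, or 72.4 CPM, from 304 fibrosis cells. Pla2g7 was higher in the second cluster, at 23.8 and 44.8 CPM against 4.51 and 3.58 CPM in the first, and neither of its ratios lay past 2-fold. Cysltr1 in the first cluster was 2.43 and 6.44 CPM (1.35, 0.08 to 2.91). The other 26, among them the thromboxane synthase gene Tbxas1 with 87.8 and 113 CPM, did not lie past 2-fold over the class. Ptgir was highest in classical monocyte-like cells in control (14.1 CPM) and in alveolar macrophage-like cells in fibrosis. Cysltr1 was highest in type 2 dendritic-like cells (76.7 and 81.1 CPM), and Pla2g7 in neutrophil-like cells (438 and 230 CPM).

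In interstitial macrophage-like cells 1 of 20 lay past 2-fold higher and 2 lower, against 10.1% of all genes there. The dipeptidase gene Dpep2, whose product acts on leukotriene D4, was 23.6 and 87.6 CPM (1.84). The phospholipase gene Pla2g2d was 163 and 65.5 CPM (-1.32), and the prostaglandin transporter gene Slco2a1 25.6 and 6.86 CPM (-1.87) on 13 and 9 UMIs. Pla2g2d was highest in these cells, Slco2a1 in endothelial-like cells (972 and 699 CPM), and Dpep2 in nonclassical monocyte-like cells in control (219 CPM) and alveolar macrophage-like cells in fibrosis (113 CPM). In AT2-like cells 2 of 26 lay past 2-fold, Pla2g7 (1.16 and 4.49 CPM) and the lipoxin receptor gene Fpr2 (0.83 and 2.34 CPM), both higher, against 5.29% of all genes there. Both were highest in neutrophil-like cells, Fpr2 at 210 and 177 CPM. Of the Pla2g7 UMIs of fibrosis AT2-like cells, 22 came from 46 cells of the cluster that also carried neutrophil markers. In the largest AT2 cluster Pla2g7 was 1.04 CPM in control and 1.95 CPM in fibrosis, with an interval of the ratio that spanned 0 (-0.83 to 2.83). The median log2 ratio of the listed pathway genes was -0.01, -0.31 and 0.05 in the 3 classes, beside -0.06, -0.03 and 0.05 over all genes with enough UMIs.

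On GRCm38, Ltc4s lies on chromosome 11 (50236461 to 50238616, minus strand) and Ptgs1 on chromosome 2 (36230426 to 36252272, plus strand). Their promoters are shown because the genes were held most strongly by different alveolar cells, macrophage-like and AT2-like. Each is the stretch of 100 bases just before the outermost GENCODE start, read from RefSeq's GRCm38.p6 promoter sequences, 5′ to 3′ on the gene's strand, at chr11:50238617-50238716 for Ltc4s and chr2:36230326-36230425 for Ptgs1. Capitals mark the letters GGAAGT, a core that ETS factors such as the product of Spi1 can bind, which begin 116 bases before the RefSeq start in Ltc4s and 22 bases before it in Ptgs1:
Ltc4s: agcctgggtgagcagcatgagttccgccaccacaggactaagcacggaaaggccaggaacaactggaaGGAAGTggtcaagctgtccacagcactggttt
Ptgs1: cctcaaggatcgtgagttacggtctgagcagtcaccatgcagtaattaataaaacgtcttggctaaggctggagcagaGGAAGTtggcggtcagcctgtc
Searched on both strands over 250 bases before the RefSeq start, GGAAGT was found in 3 of the 7 members with an entry (Ltc4s, Ptgs1 and Hpgds) and in 19.7% of 32851 mouse promoters. GAGGAA, which overlapped it in Ptgs1 and Hpgds, was found in 6 of the 7 and in 23.3%. GGGCGG, an Sp-factor motif, was in Alox5, Ptges and Ptgs2 and in 32.7% of promoters, and TATAAA and CGTCA were in none of the 7 and in 12.4% and 17.8%.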

How the data were processed

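The deposited values were raw UMI counts per gene and cell, 1 matrix per library, from the 10x Genomics 3′ V2 chemistry per the labels. The authors used bcl2fastq and Cell Ranger 1.3 with the mm10 build, per the submitters' processing notes. Aligner settings, annotation and cell calling are not given in the sources used here. The lowest deposited totals were 1460 (control) and 1915 UMIs (fibrosis), over 8280 and 7173 cells.

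Cells over 10% mitochondrial UMIs (254 and 228) or under 200 genes (1 control cell) were left out. The top-scoring doublets, at 0.8% per 1000 cells, were removed (515 and 386). A cell joined the class with the highest share of its markers detected, given at least 3 markers and a share 1.25 times the next, thresholds set after the cells were seen. Leading shares under 1.5 times the next occurred in 523 and 610 classed cells. Ciliated-like and nonclassical monocyte-like cells shared clusters with club-like and classical monocyte-like cells. UMIs were summed per class, with exact Poisson intervals for levels, conditional binomial intervals for ratios and Clopper-Pearson intervals for shares. To each count of a ratio 0.5 UMI was added, but not in its interval. Only the ratios and their intervals were tested on simulated data. A count of 0 was given a limit of 3 counts. Shares were compared after thinning to 1000 UMIs, except those called unthinned or given before thinning. Clusters used 2000 variable genes, 30 components, 15 neighbours and Leiden resolution 1 (leidenalg 0.10.2), without the members. Python 3.11.15, numpy 2.4.6 and scipy 1.17.1 were used.

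The members, the lists and their genes were chosen with earlier results of these data known. Named were all members, listed pathway genes past 2-fold in the 3 classes, and the 2 genes most like each member with at least 200 UMIs. Positions are from GENCODE M21, and 7 of the 10 members matched RefSeq's promoter table, which had no entry for Alox5ap, Alox15 and Ptgis. Alternatives are given in the closing section.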

Additional observations from a re-analysis of the deposited data

How the results depend on the processing

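Of 465 alternative values of the 52 ratios, 438 stayed within the counting interval of the main value. In 42 the sign differed, in 21 of the ratios, and for 15 of these 21 the counting interval spanned 0. The 6 others were Alox5ap in AT2-like cells, at -0.55 instead of 0.42 without doublet removal, and 5 ratios from which the median ratio of the same gene in the other classes was subtracted. These were -0.29 for Ptges in AT2-like cells, -0.12 for Ptgs1 in endothelial-like cells (both past 2-fold without the subtraction), -0.68 for Ptgs1 in AT2-like, 0.27 for Alox5 in alveolar macrophage-like and 0.025 for Alox5ap in nonclassical monocyte-like cells. The same subtraction gave -1.82 for Ptgs2 (AT2-like), -0.82 for Ltc4s and 1.41 for Ptgs1 (both alveolar macrophage-like), and for Alox5ap -0.039 in classical monocyte-like and -0.50 in neutrophil-like cells. It took 3 other ratios from past to under 2-fold, Ptges in alveolar macrophage-like (0.29), Ptgs1 in classical monocyte-like (0.80) and Ptgs2 in club-like cells (0.81). Clusters in place of gated classes gave -0.41 for Ltc4s in alveolar macrophage-like and -0.42 for Alox5ap in classical monocyte-like cells, and -1.68 for Alox5ap in endothelial-like cells. Pairs past 2-fold, 12 of 52, were 51 of 138 with at least 1 UMI and 4 of 36 with at least 50 UMIs (11.1%, against 4.05% of all pairs). They were 17 of 56 by clusters (12 higher, 5 lower) and 13 of 56 without doublet removal. At a lead of 1.5 times, a setting added after the data were seen, they were 10 of 50. The share of all pairs was counted only in the main setting, with at least 20 and at least 50 UMIs. The other counts have no such share beside them and are not read as results about these genes. No paired analysis was possible because each group is 1 library, and leaving out a replicate was not possible for the same reason. Depth limits the pairs under 20 UMIs, where no ratio is read.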
